A study of Mus musculus with 2 samples.

Results

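The mitochondrial carriers of the *Slc25* family were compared between the livers of miR-182-5pKO and WT mice after partial hepatectomy. Members were the genes of the expression table whose symbol is *Slc25a* followed by a number, which gave 47 of the 34745 genes listed. Relatives under other symbols, such as *Ucp2* and *Mtch1*, fall outside this rule, so sums, shares and counts of the family leave them out. Of the 47, 40 had at least 10 counts over both libraries and were compared, among 13561 genes of the table that met this minimum. The other 7 were 4 carriers with no count in either library (*Slc25a31*, *Slc25a41*, *Slc25a43* and *Slc25a54*) and 3 carriers counted in WT liver alone, *Slc25a14* with 5 counts, *Slc25a2* with 2 and *Slc25a18* with 1. No fold is given for the latter 3, since their WT counts lie near or under a floor of 3 counts per library.

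The study asked how miR-182-5p, a microRNA, takes part in liver regeneration. Liver of male mice aged 8 to 10 weeks was collected at day 3 after 2/3 partial hepatectomy (2/3 PH), in which most of the liver is removed and the remnant regrows. Both libraries came from operated mice, and no unoperated liver was analysed here. Poly(A) RNA was sequenced, with 1 library labelled miRNA-182 KO and 1 labelled WT. By the methods of the study the KO mice are heterozygous, carry 1 intact copy of the gene in every cell type, and so model a lowered level rather than the absence of the microRNA. With 1 library per genotype no difference has a replicate check. Each comparison is of these libraries and not of the genotypes, intervals cover counting error only, and whether a library holds RNA of 1 mouse or of several is not given in the sources used here. Poly(A) libraries do not measure the mature microRNA, so the genotype labels were not checked against it.

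SLC25 proteins are a family of related transporters, most of them in the inner mitochondrial membrane, which is otherwise closed to charged metabolites. Each protein is built from repeats of a pair of membrane-spanning helices and exchanges substrates between the cytosol and the matrix, such as ADP for ATP, citrate for malate or ornithine for citrulline. In the liver they link the urea cycle, gluconeogenesis, lipid synthesis, fatty acid oxidation and heme synthesis to the enzymes inside the mitochondrion.

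Because the mice differ in miR-182-5p, its sequence and its matches in the carriers are shown first. The mature microRNA lies at chr6:30165962-30165986 on the minus strand (GRCm38.p6, sequence from RefSeq), and capitals mark its seed, bases 2 to 8, which pairs with a target.
mmu-miR-182-5p: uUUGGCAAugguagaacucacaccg
The longest annotated 3′ UTR of each gene (GENCODE M21, GRCm38) was searched for TTGCCAAA, the 8-base complement of the seed followed by A. It was found in 2 of the 40 compared carriers (5.00%) and in 690 of 12537 compared genes with a 3′ UTR (5.50%). The 7-base TTGCCAA, which includes the 8-base matches, was found in 7 carriers (17.5%) and in 1678 genes (13.4%), and the median 3′ UTR was 1619 bases in the carriers and 1308 bases in all these genes. The 8-base matches are shown with the bases around them and with the match in capitals.
*Slc25a51*, chr4:45398628-45398635, minus strand: tactgaattcaTTGCCAAAagatagggtgc
*Slc25a51*, chr4:45395986-45395993, minus strand: atgctctttgcTTGCCAAActgctgaggag
*Slc25a32*, chr15:39092524-39092531, minus strand: agttggggaggTTGCCAAAaggaaaggcag
*Slc25a51*, the mitochondrial NAD carrier, holds 2 of these matches and had 845 counts in KO liver and 1077 in WT liver, which gave a log2 fold change of 0.24 (95% counting interval 0.11 to 0.37). *Slc25a32*, the folate and FAD carrier, had 31 and 66 counts, or a log2 fold change of -0.49 (-1.16 to 0.14), and its match lies beyond the end of the gene as the deposited table places it. Neither carrier reached 2-fold. The other 5 compared carriers with a 7-base match were *Slc25a1*, *Slc25a22*, *Slc25a28*, *Slc25a36* and *Slc25a42*. *Slc25a10*, *Slc25a5* and *Slc25a4*, the carriers that were at least 2-fold lower in KO liver, held no match of either length.

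The KO library had 13247497 counts and the WT library 13163348. The 13 mitochondrially encoded protein genes took 51.7% of the counts in KO liver and 31.0% in WT liver. Scaling by the total count therefore lowers the other genes of the KO library, and it set the median log2 fold change of all compared genes at -0.60, whereas TMM scaling set it at 0.00. Of each pair of values the KO value is given first. Folds below are TMM-scaled unless the total count is named, and a carrier is said to have risen or fallen where it was at least 2-fold apart. The hepatocyte markers *Alb* (339876 and 536544 counts in the KO and WT libraries) and *Ttr* (57646 and 74228) were both detected at high counts, as the liver label states. In bulk tissue fewer cells of a type and less RNA per cell cannot be told apart.

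Detected carriers spanned more than 3 orders of magnitude in each library, and the order was led by *Slc25a47*, a liver-enriched member. Its level was 94.5 FPKM in KO liver and 108 FPKM in WT liver, which was 30.7% and 22.4% of the summed FPKM of the family. *Slc25a15*, the ornithine carrier of the urea cycle, followed with 28.6 and 51.4 FPKM, and *Slc25a5*, the ADP/ATP carrier of proliferating tissues, with 17.4 and 57.1 FPKM. These 3 genes are the highest in WT liver, and *Slc25a5* went from rank 2 there to rank 5 of 47 in KO liver. The citrate carrier *Slc25a1* had 17.5 and 29.5 FPKM, the calcium-regulated ATP-Mg/phosphate carrier *Slc25a23* 18.2 and 21.7 FPKM, and the peroxisomal coenzyme A, FAD and NAD carrier *Slc25a17* 15.0 and 21.5 FPKM. The carnitine/acylcarnitine carrier *Slc25a20* (13.7 and 17.7 FPKM), the glutathione carrier *Slc25a39* (7.90 and 18.8 FPKM), the phosphate carrier *Slc25a3* (8.68 and 14.0 FPKM) and citrin, *Slc25a13* (7.25 and 14.1 FPKM), completed the 10 highest by mean. The 5 highest carriers of each library held 57.3% of the family's FPKM in KO liver and 55.3% in WT liver. The largest move in the order was that of the dicarboxylate carrier *Slc25a10*, from rank 7 in WT liver to rank 29 in KO liver.

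The lengths behind the deposited FPKM exceeded the longest annotated transcript by a median factor of 1.66 over 9718 genes, and by 2.41 for *Slc25a5* and 3.07 for *Slc25a22*, but not for *Slc25a47*, whose ratio was 0.835. Levels were therefore also taken as counts per kilobase of the longest GENCODE M21 transcript, scaled by the total count of the library. On that scale *Slc25a5* led the WT library with 138, ahead of *Slc25a47* with 90.6, and the KO library had 42.1 for *Slc25a5* and 78.9 for *Slc25a47*. *Slc25a10* went from rank 5 to rank 24 on this scale. Which carrier is the most abundant in WT liver thus depended on the length used, while the drop of *Slc25a10* and *Slc25a5* in the order did not.

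**Figure D1:**
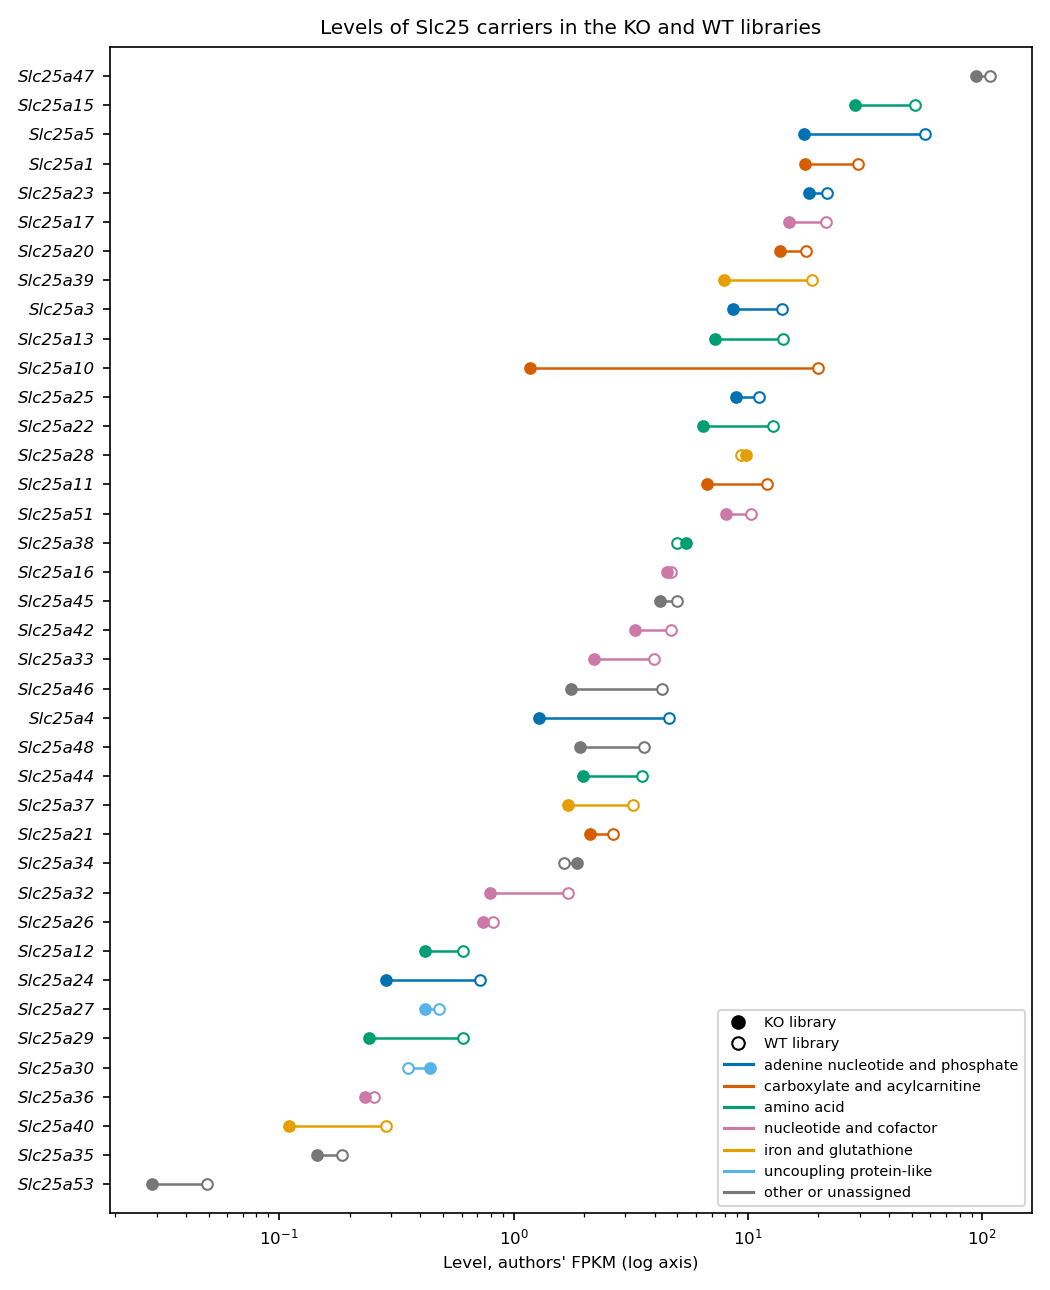
Level of 39 of the 40 compared carriers as the deposited FPKM on a log axis, with a filled circle for the KO library and an open circle for the WT library, in colours of the substrate class and ordered by the mean of both. *Slc25a47* is at the top with 94.5 and 108 FPKM, and the widest gap is that of *Slc25a10*, with 1.18 FPKM in KO liver and 20.0 in WT liver.

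As a whole the family moved little. Its members held 17363 counts in KO liver and 28280 in WT liver, which was 0.271% (exact 95% interval 0.267 to 0.275) and 0.311% (0.308 to 0.315) of the counts that were not mitochondrially encoded. The TMM-scaled sum had a log2 fold change of -0.11 (-0.14 to -0.08). Without the 3 carriers that fell, the remaining 44 summed to 16545 and 24513 counts and a log2 fold change of 0.03 (0.00 to 0.05). These 3 were picked by the same values, so the direction of that move was fixed in advance and the sum is a description only. The median over the 40 carriers was -0.01, with a range of -3.48 to 0.87, against 0.00 over all compared genes, and 20 carriers lay below 0 and 20 above.

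No carrier rose by 2-fold, where 9.46% of all compared genes did, and no alternative scaling, filter or call rule gave any. Of the 40 carriers 3 fell by 2-fold or more (7.50%), where 9.94% of all compared genes did. The share of carriers that fell was thus near that of all genes. The 3 were *Slc25a10*, *Slc25a4* and *Slc25a5*, and of the rest the nearest to the threshold on the lower side was the glutathione carrier *Slc25a40*, with 21 and 54 counts and a log2 fold change of -0.76. On the higher side it was *Slc25a30*, with 10 and 8 counts and 0.87. Among the 31 carriers with at least 100 counts, the same 3 made up 9.68%, against 5.94% of 9322 genes at that depth. By counting error alone, the interval lay wholly below 0 for 12 carriers, wholly above 0 for 11 and included 0 for 17. Among the 40 carriers of the symbol rule, *Slc25a10* was the 1 whose whole interval lay past 2-fold lower, as it did for 425 of all compared genes.

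Scaling by the total count, mitochondrial genes included, gave another picture of direction. It lowers every gene by nearly the same amount, so the family's place among all genes could hardly change. On that scale 36 carriers were lower in KO liver and 4 higher (*Slc25a28*, *Slc25a30*, *Slc25a34* and *Slc25a38*), with a median of -0.61 against -0.60 over all compared genes. None was 2-fold higher, against 4.60% of all genes, and 9 (22.5%) were 2-fold lower, against 26.6% of all genes. The 6 added were *Slc25a24*, *Slc25a29*, *Slc25a32*, *Slc25a39*, *Slc25a40* and *Slc25a46*. For the same reason *Slc25a10*, *Slc25a5* and *Slc25a4* were the furthest down on both scales.

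**Figure D2:**
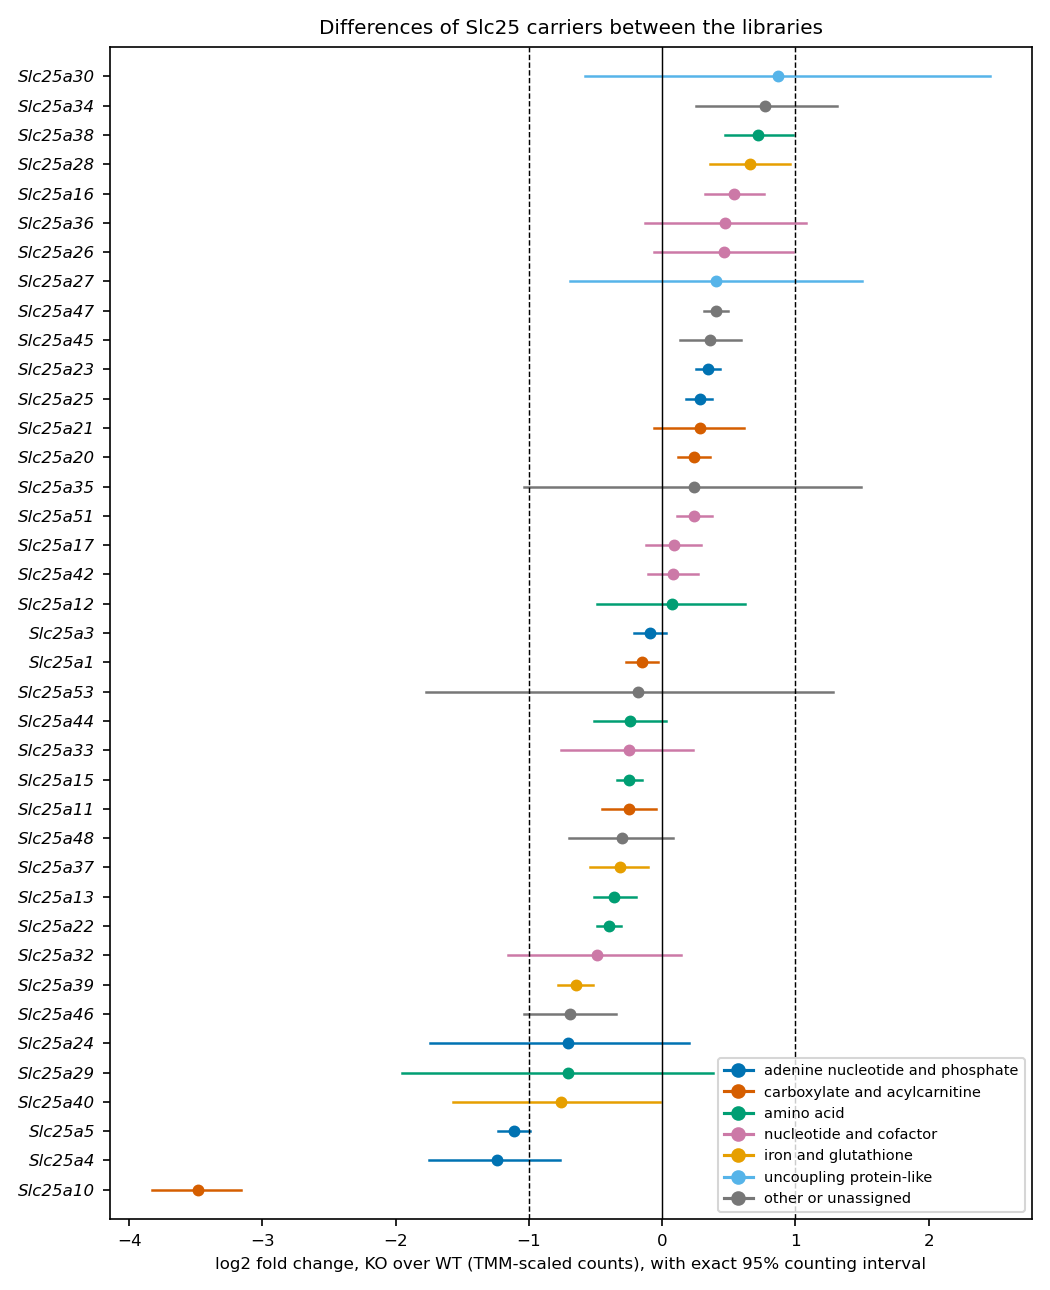
TMM-scaled log2 fold change of 39 compared carriers (KO over WT), with its exact 95% counting interval as a bar and dashed lines at 2-fold in each direction. *Slc25a10* stands apart at -3.48, *Slc25a4* and *Slc25a5* are at -1.24 and -1.11, and the other 36 drawn lie within 2-fold, the highest being *Slc25a30* at 0.87 with an interval of -0.58 to 2.46.

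The carboxylate and acylcarnitine carriers held the largest single difference. *Slc25a10* (ENSMUSG00000025792, chr11:120491840-120499187, plus strand, GRCm38) exchanges malate or succinate of the matrix for phosphate. It had 80 counts in KO liver and 1352 in WT liver, or 1.18 and 20.0 FPKM. It was thus 11.2-fold lower in KO liver, with a log2 fold change of -3.48 (-3.83 to -3.16), and -4.08 by the total count. Its share of the family's FPKM was 0.383% in KO liver and 4.13% in WT liver. The other 4 carriers of the class were within 2-fold. *Slc25a1*, which sends citrate to the cytosol for lipid synthesis, had 879 and 1469 counts and a log2 fold change of -0.15 (-0.27 to -0.03). The 2-oxoglutarate/malate carrier *Slc25a11*, of the malate-aspartate shuttle, had 311 and 557 counts and -0.25 (-0.45 to -0.05). *Slc25a20*, which brings acylcarnitines into the matrix, had 955 and 1220 counts and 0.24 (0.12 to 0.36), and the oxodicarboxylate carrier *Slc25a21* had 139 and 173 counts and 0.28 (-0.06 to 0.61).

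The genes beside *Slc25a10* on chromosome 11 were looked up after its values were seen. *Mrpl12*, a mitochondrial ribosomal protein gene whose start lies at -7.23 kb from that of *Slc25a10*, had 516 and 1051 counts and a log2 fold change of -0.43 (-0.59 to -0.28). *Hgs*, further upstream, had 273 and 343 counts and 0.26 (0.03 to 0.50), and *Gcgr*, the glucagon receptor gene downstream, had 4767 and 4372 counts and 0.72 (0.66 to 0.78). *Fam195b*, further downstream, fell with 45 and 138 counts and -1.02 (-1.54 to -0.53). *Oxld1*, *Ccdc137* and *Arl16*, upstream, were at -0.08, -0.08 and -0.04, and *Gm11789*, downstream, was at 0.45. None of these neighbours came near the difference of *Slc25a10*. The antisense gene *Gm11788* overlaps its 5′ end and shares 9.02% of its 51-base words, but had no count in either library.

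The adenine nucleotide and phosphate carriers held the other 2 carriers that fell. *Slc25a5* (ENSMUSG00000016319, chrX:36795651-36798807, plus strand), which brings ADP in and ATP out, had 692 counts in KO liver and 2250 in WT liver. It was 2.16-fold lower, with a log2 fold change of -1.11 (-1.23 to -0.99), and -1.71 by the total count. *Slc25a4* (ENSMUSG00000031633, chr8:46206797-46211284, minus strand), the isoform of heart and skeletal muscle, had 46 and 165 counts. It was 2.37-fold lower, with a log2 fold change of -1.24 (-1.75 to -0.77), and -1.84 by the total count. The counting intervals of both reached below 2-fold. The testis isoform *Slc25a31* had no count. All the detected ADP/ATP carriers were therefore lower in KO liver, whereas the phosphate carrier *Slc25a3*, which supplies the other substrate of ATP synthase, had 966 and 1551 counts and -0.09 (-0.21 to 0.03). The ATP-Mg/phosphate carriers *Slc25a23* (1778 and 2113 counts) and *Slc25a25* (1703 and 2121 counts) lay above 0, at 0.34 (0.25 to 0.43) and 0.28 (0.18 to 0.37), and the related *Slc25a24* had 14 and 35 counts and -0.71 (-1.74 to 0.20). By the total count *Slc25a23* and *Slc25a25* were at -0.26 and -0.33.

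*Slc25a5* has near-identical copies in the genome, and 45.6% of its 51-base words occur in other genes. These are 9 genes, of which 1 is listed in the table, with no count in either library, and how reads that match several places were counted is not given in the sources used here. Its value is uncertain to that extent. The 5 striated muscle markers (*Acta1*, *Actn3*, *Ckm*, *Myh4* and *Tnnt3*) had no count in WT liver and 0 to 5 counts in KO liver.

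Promoters of the 3 carriers that fell are shown because these genes were lower together. Each runs from 250 bases before to 50 bases after the RefSeq start (GRCm38.p6), on the strand of the gene, and capitals mark CCAAT, the NF-Y motif, on either strand.
*Slc25a10*, chr11:120491587-120491886, plus strand: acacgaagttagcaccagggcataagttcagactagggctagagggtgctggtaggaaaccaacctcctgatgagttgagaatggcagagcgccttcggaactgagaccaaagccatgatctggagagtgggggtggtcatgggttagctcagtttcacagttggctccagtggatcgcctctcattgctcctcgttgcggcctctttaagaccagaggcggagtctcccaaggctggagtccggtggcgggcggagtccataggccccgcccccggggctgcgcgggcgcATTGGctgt
*Slc25a4*, chr8:46211013-46211312, minus strand: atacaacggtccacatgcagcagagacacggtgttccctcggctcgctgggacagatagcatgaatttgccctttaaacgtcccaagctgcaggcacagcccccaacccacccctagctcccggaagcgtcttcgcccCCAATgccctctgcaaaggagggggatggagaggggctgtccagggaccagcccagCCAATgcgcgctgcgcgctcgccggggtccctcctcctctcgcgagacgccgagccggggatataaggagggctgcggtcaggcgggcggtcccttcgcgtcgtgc
*Slc25a5*, chrX:36795347-36795646, plus strand: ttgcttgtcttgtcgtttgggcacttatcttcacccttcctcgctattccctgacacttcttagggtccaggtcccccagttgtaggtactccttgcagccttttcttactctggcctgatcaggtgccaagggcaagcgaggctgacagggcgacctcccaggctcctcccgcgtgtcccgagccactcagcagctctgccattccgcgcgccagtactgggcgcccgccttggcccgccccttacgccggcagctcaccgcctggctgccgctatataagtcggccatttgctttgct
The *Slc25a10* window holds 1 CCAAT motif, the *Slc25a4* window 2 and the *Slc25a5* window none, with GC contents of 59.7%, 65.7% and 61.0%. Promoters were found for 31 of the 40 compared carriers and for 9956 compared genes. CCAAT occurred in 19 of the carriers (61.3%) and in 43.1% of the genes, and the E-box CACGTG in 5 carriers (16.1%) and 11.5% of the genes. The cAMP response element TGACGTCA occurred in 2 carriers, *Slc25a25* and *Slc25a36* (6.45%), and in 3.45% of the genes. Of the motifs of factors known for mitochondrial genes, the GABP motif CCGGAAGT occurred in *Slc25a20* alone (3.23%, against 8.76% of the genes), while the NRF1 motif GCATGCGC (5.80% of the genes) and the ERR motif CAAGGTCA (1.34%) occurred in no carrier. The 5 motifs other than CCAAT were not found in the 3 windows shown.

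None of the 7 compared amino acid carriers reached 2-fold. *Slc25a15*, which brings ornithine into the matrix, had 1307 and 2336 counts and a log2 fold change of -0.25 (-0.34 to -0.15). The aspartate/glutamate carrier *Slc25a13* (citrin), the form of the liver, had 519 and 1002 counts and -0.36 (-0.51 to -0.20), and its paralogue *Slc25a12* (aralar) had 48 and 69 counts and 0.07 (-0.49 to 0.62). The glutamate carrier *Slc25a22* had 1458 and 2897 counts and -0.40 (-0.49 to -0.31). *Slc25a15*, *Slc25a13* and *Slc25a22* thus lay below 0. By the total count *Slc25a15* and *Slc25a13* were at -0.85 and -0.96, and *Slc25a22* was lower still but within 2-fold. *Slc25a44*, a carrier of branched-chain amino acids, had 182 and 324 counts and -0.24 (-0.51 to 0.03), and the basic amino acid carrier *Slc25a29* had 10 and 25 counts and -0.71 (-1.95 to 0.38). The glycine carrier *Slc25a38*, which feeds heme synthesis, lay on the other side with 273 and 249 counts and 0.72 (0.47 to 0.98).

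The 9 carriers of nucleotides and cofactors were all compared, and 7 lay above 0, with a median of 0.24. *Slc25a16*, linked to coenzyme A, had 339 and 351 counts and 0.54 (0.32 to 0.76). The coenzyme A carrier *Slc25a42* had 390 and 555 counts and 0.08 (-0.11 to 0.27), and *Slc25a17* had 332 and 471 counts and 0.09 (-0.12 to 0.29). The S-adenosylmethionine carrier *Slc25a26* (62 and 68 counts) and the pyrimidine nucleotide carriers *Slc25a36* (47 and 51) and *Slc25a33* (55 and 99) had intervals that included 0. By the total count every one of the 9 was below 0, the lowest being *Slc25a32* at -1.09, so that the side of 0 for this class depended on the scaling.

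The iron and glutathione carriers were split. *Slc25a28* (mitoferrin 2), which brings iron into the matrix of most cells, had 196 and 187 counts and a log2 fold change of 0.66 (0.36 to 0.96). *Slc25a37* (mitoferrin 1), the form of erythroid cells, had 275 and 518 counts and -0.32 (-0.54 to -0.11). The glutathione carrier *Slc25a39* had 659 and 1560 counts and -0.65 (-0.78 to -0.52), and the related *Slc25a40* had 21 and 54 counts and -0.76 (-1.57 to -0.02). Of the heme synthesis and iron-sulfur cluster genes, 1 of 9 passed 2-fold, the erythroid enzyme gene *Alas2*, which rose with 535 and 347 counts (1.22, interval 1.02 to 1.42), and the list had a median of 0.17. *Alas1*, which starts heme synthesis in hepatocytes, had 2631 and 2921 counts and 0.44 (0.36 to 0.52). Of the 8 erythroid markers 5 were compared, 1 rose (*Alas2*) and 1 fell (*Hbb-bs*, 64 and 200 counts, -1.05), and 4 of the 5 lay below 0 with a median of -0.59. *Slc4a1* had 0 and 7 counts, and the list summed, on the scale of the total count, to 37.5 FPKM in KO liver and 71.1 in WT liver. Their part in the values of *Slc25a37* and *Slc25a38* was not tested.

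Of the uncoupling protein-like carriers, *Slc25a27* (15 and 17 counts, 0.40) and *Slc25a30* (10 and 8 counts, 0.87) were near the count minimum, and both intervals included 0. Among the members with other or no assigned substrates, *Slc25a47* had 1976 and 2255 counts and a log2 fold change of 0.40 (0.31 to 0.49), and -0.20 by the total count. *Slc25a45* had 295 and 347 counts and 0.36 (0.13 to 0.59), *Slc25a34* had 66 and 58 counts and 0.77 (0.25 to 1.31), and *Slc25a48* had 86 and 160 counts and -0.30 (-0.70 to 0.08). *Slc25a46*, an outer membrane member linked to mitochondrial fission, had 102 and 248 counts and -0.69 (-1.04 to -0.35). *Slc25a35* and *Slc25a53* had at most 14 counts in a library and wide intervals that included 0.

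Shares of the family's FPKM within each library do not depend on how the libraries are scaled against each other. The adenine nucleotide and phosphate carriers made up 17.8% in KO liver and 22.5% in WT liver, and the carboxylate and acylcarnitine carriers 13.4% and 16.9%. The amino acid carriers made up 16.4% and 18.2%, the nucleotide and cofactor carriers 11.9% and 10.2%, and the iron and glutathione carriers 6.33% and 6.54%. The largest shift was that of the members with other or no assigned substrates, 33.9% against 25.4%, of which *Slc25a47* alone held 30.7% and 22.4%. Without *Slc25a47* this shift of 8.53 percentage points was 0.74 points, the amino acid carriers went from -1.83 to 0.18 points, and the nucleotide and cofactor carriers from 1.63 to 3.94 points. The adenine nucleotide class went from -4.74 points to 0.82 points when counts replaced FPKM. The lower share of the carboxylate and acylcarnitine class rested on *Slc25a10*, without which the class made up 13.1% in KO liver and 13.3% in WT liver. The nucleotide and cofactor class was higher in KO liver under each of these alternatives.

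**Figure D3:**
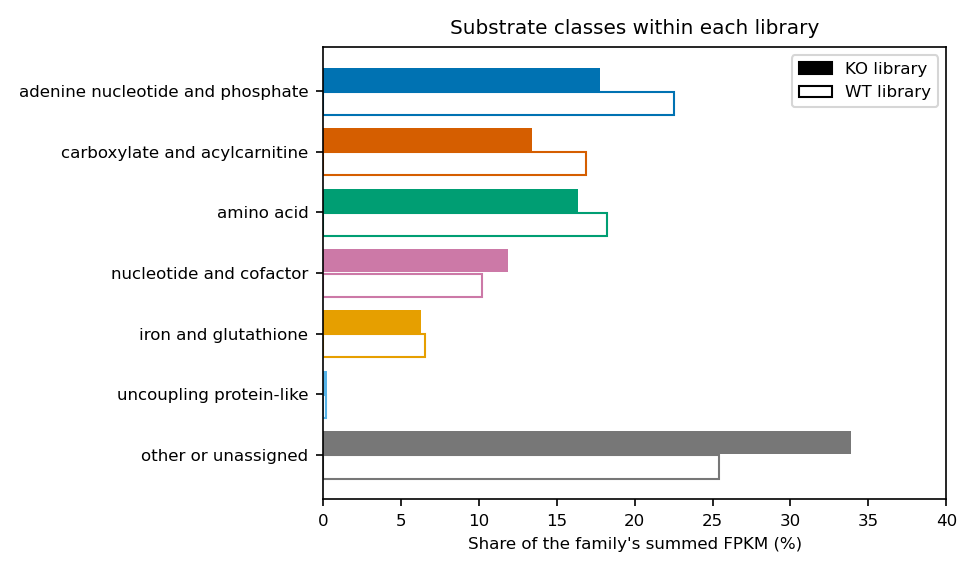
Share of each substrate class in the summed FPKM of the family, in percent, with a filled bar for the KO library and an open bar for the WT library. The adenine nucleotide and carboxylate classes take 17.8% and 13.4% in KO liver against 22.5% and 16.9% in WT liver, and the class with other or no assigned substrates takes 33.9% against 25.4%.

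Carriers that share a role were compared as ratios within a library, which also do not depend on the scaling. Of 10 pairs 8 had enough counts, and 1 changed by 2-fold. The ratio of *Slc25a5* to *Slc25a4* counts was 15.0 in KO liver and 13.6 in WT liver, a log2 change of 0.14 (-0.36 to 0.66), so the balance of the ADP/ATP carriers did not differ beyond counting error while both were lower. The ratio of *Slc25a24* to *Slc25a23* was 0.00787 and 0.0166, a log2 change of -1.07 (-2.09 to -0.14), which rests on the 14 and 35 counts of *Slc25a24*. The ratio of *Slc25a37* to *Slc25a28* was 1.40 and 2.77, a log2 change of -0.98 (-1.35 to -0.61), so the KO library held a lower share of the erythroid mitoferrin. For *Slc25a16* over *Slc25a42* the ratio was 0.869 and 0.632, a log2 change of 0.46 (0.17 to 0.75). Count ratios are not divided by length and do not say which carrier of a pair is the more abundant. By FPKM the ratios were 0.174 and 0.343 for *Slc25a37* over *Slc25a28*, and 1.37 and 0.996 for *Slc25a16* over *Slc25a42*. The intervals included 0 for *Slc25a13* over *Slc25a12* (log2 change -0.43), *Slc25a25* over *Slc25a23* (-0.07), *Slc25a39* over *Slc25a40* (0.12) and *Slc25a33* over *Slc25a36* (-0.73). The glutamate carrier *Slc25a18* and the ornithine carrier *Slc25a2* had no count in KO liver, so their pairs with *Slc25a22* and *Slc25a15* were not computed.

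**Figure D4:**
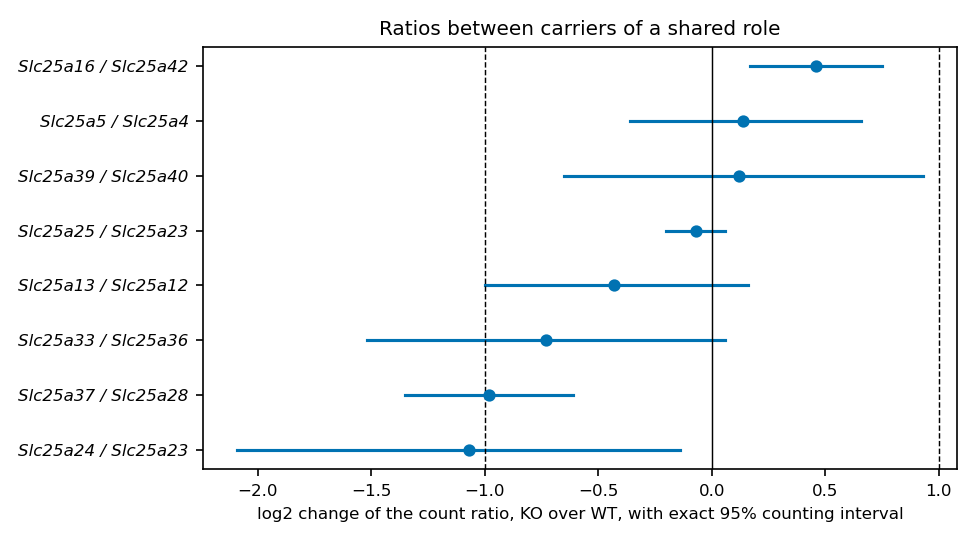
Log2 change (KO over WT) of the count ratio within each of 8 carrier pairs, with the exact 95% counting interval as a bar and dashed lines at 2-fold. *Slc25a24* over *Slc25a23* is at -1.07 and *Slc25a37* over *Slc25a28* at -0.98, while *Slc25a5* over *Slc25a4* is at 0.14.

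The enzymes that work with the carriers were read from lists. None of the 7 urea cycle and ornithine genes passed 2-fold (median -0.18), with *Otc*, which uses the ornithine that *Slc25a15* brings in, at 0.13 (0.06 to 0.20) and *Cps1* at -0.63 (-0.67 to -0.58). None of the 8 malate-aspartate and citrate genes passed 2-fold either (median -0.42), but 7 lay below 0, among them the malate dehydrogenase genes *Mdh1* (984 and 2544 counts, -0.78) and *Mdh2* (1067 and 2968 counts, -0.88) and the malic enzyme gene *Me1* (205 and 613 counts, -0.99), which use malate, a substrate of *Slc25a10*. *Acly*, which splits the citrate that *Slc25a1* exports, was at -0.39 (-0.53 to -0.26). Of the 5 carnitine shuttle genes 1 fell, the carnitine acetyltransferase gene *Crat*, with 49 and 684 counts and -3.20 (-3.66 to -2.79), while *Cpt1a* and *Cpt2*, on either side of *Slc25a20* in the pathway, were at 0.30 (0.19 to 0.42) and -0.16 (-0.29 to -0.02).

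None of the 15 ATP synthase genes passed 2-fold, with a median of -0.36 and 12 below 0. By point value the ADP/ATP carriers that serve it were lower than all of them, the lowest being *Atp5b* at -0.90 (-0.99 to -0.81). The interval of *Slc25a4* (-1.75 to -0.77) overlapped that of *Atp5b*, and that of *Slc25a5* (-1.23 to -0.99) met its bound. The wide interval of *Atp5g2* (9 and 16 counts, -1.60 to 1.03) overlapped those of both carriers. Of the 17 compared genes of other mitochondrial transporters 1 fell, *Mtch1*, a carrier-like protein gene of the outer membrane, with 51 and 489 counts and -2.66 (-3.11 to -2.25). The uncoupling protein gene *Ucp2*, a member of the *Slc25* family that the symbol rule leaves out, had 385 and 534 counts and 0.12 (-0.07 to 0.31). *Ucp1* and *Ucp3* had no count. All 9 compared genes of the carrier import pathway, which inserts these proteins into the inner membrane, lay below 0 (median -0.23). Of all 13561 compared genes 6778 did. The intervals of *Timm9*, *Timm10*, *Timm10b*, *Tomm20* and *Tomm22* included 0. *Agk*, a subunit of the TIM22 import complex, was the 1 that fell, with 7 and 37 counts and -1.75 (-3.22 to -0.63). None of 9 transcriptional regulators of mitochondrial genes passed 2-fold (median 0.05, range -0.82 to 0.97). The 13 mitochondrially encoded protein genes all rose, with a median of 1.34 and a range of 1.02 to 1.55, and by the total count their median was 0.74, under 2-fold.

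Markers of the cell types in the liver were read beside the carriers that fell. Of 7 compared hepatocyte markers 1 fell, *Apob* (1517 and 17808 counts, -2.96), the median was 0.12, and their summed level was 21583 FPKM in KO liver and 30997 in WT liver. These sums carry the scaling of the deposited FPKM by the total count, whereas the medians are TMM-scaled. Of all compared genes 9.94% fell by 2-fold. Of 7 stellate cell markers 2 fell, *Acta2* and *Col1a1* (median of the 7 -0.52), and the list summed to 22.6 FPKM in KO liver and 50.6 in WT liver. Of 7 Kupffer cell and macrophage markers 2 fell, *Adgre1* and *Marco* (list median -0.31, summed 42.1 and 87.4 FPKM). Of 6 endothelial markers 1 fell, *Lyve1* (list median -0.44, summed 8.08 and 16.6 FPKM). None of the stellate, Kupffer and endothelial markers was at 0 in either library. Of 4 cholangiocyte markers 2 rose, *Krt19* and *Krt7*, from 7 and 6 counts in WT liver to 26 and 15 in KO liver. *Sox9*, with the most counts of the 4, had 69 and 129 counts and -0.31 (-0.75 to 0.12). *Epcam* had 11 and 15 counts and 0.14 (-1.12 to 1.37), and the list summed to 2.64 and 3.21 FPKM. Of 3 compared lymphocyte markers 1 rose, *Cd79a*, with 12 and 4 counts, and neither of the 2 compared neutrophil markers passed 2-fold. The part of these cell types in the values of *Slc25a10*, *Slc25a5* and *Slc25a4* was not tested.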

How the data were processed

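RNA-seq of regenerating liver was analysed, with 1 miR-182-5pKO and 1 WT library taken at day 3 after 2/3 PH. The authors deposited raw read counts per gene and the FPKM they computed from them, in 1 table of both libraries. Between the libraries the count per FPKM differed by 1.006 to 1.007 for each gene counted in both, close to the 1.006 of the totals. The deposited FPKM therefore carry a scaling by all counts, the mitochondrially encoded genes among them. The submitters' processing notes name HISAT2 2.0.4, StringTie and edgeR without their roles, and name hg38, a human build. The identifiers are of the mouse, and 34267 of 34745 are in GENCODE M21 (GRCm38), 80.8% of them with the same coordinates. Whether counting used strand is not given in the sources used here.

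Counts were scaled by TMM (edgeR 4.0.16, R 4.3.3), with a prior count of 0.5 and a minimum of 10 counts over both libraries. A difference of at least 2-fold was called, since edgeR's quasi-likelihood test needs replicates. Intervals are exact 95% binomial (Clopper-Pearson) intervals. Those of folds were taken at the TMM-scaled library sizes. These are the totals of 13247497 (KO) and 13163348 (WT) counts multiplied by TMM factors of 0.812 and 1.23. All these intervals cover counting error only, since there is 1 library per genotype. They may be too narrow even for that, since PCR reads are not independent molecules. Paralogue ratios are conditional odds ratios with exact intervals (scipy 1.17.1). Class shares are sums of FPKM. Other scalings (DESeq2 1.42.0 among them), filters and call rules were tried. The scaling steps were also run on simulated counts that hold counting error only, which cannot speak to variation between animals. Python 3.11.15, pandas 2.3.3, numpy 2.4.6 and matplotlib 3.10.9 were used. The carriers named are those past 2-fold, the 10 with the highest mean FPKM, both members of each pair and those under the count minimum, and of other lists the genes past 2-fold and direct metabolic partners. Carriers outside this rule that are given for their class were named after their values were seen. The members, lists and rule were chosen with earlier results of these data known. Seed and motif matches were counted on GENCODE M21 3′ UTRs and RefSeq promoters. Protein sequences were not used here, and some items are not reported here.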

Additional observations from a re-analysis of the deposited data

How the results depend on the processing

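*Slc25a10*, *Slc25a4* and *Slc25a5* were the carriers at least 2-fold lower, and no carrier was higher, under TMM, DESeq2 size factors, upper quartile scaling, total counts without mitochondrial genes, a prior count of 5, a minimum of 50 counts and an exact binomial test of the libraries. Carriers lower numbered 9 by total counts, 8 by FPKM (pseudocount 0.1) and 6 with a minimum of 1 count. It was 1, *Slc25a10*, in the exact test of edgeR when the biological coefficient of variation was set at 0.2, a value that these data cannot give. Over all genes, 1283 were higher and 1348 lower, against 624 and 3605 by total counts, 405 and 2934 by FPKM, 2269 and 2763 with a minimum of 1 count, 656 and 730 with a minimum of 50, and 488 and 444 with the assumed coefficient. Genes lower made up 51.2% of those called, but 85.2% by total counts and 87.9% by FPKM. The carriers' median was -0.61 by total counts, -0.51 by FPKM and 0.07 over carriers with at least 100 counts, a limit chosen after seeing the data. Of 183 alternative values of 23 named carriers, 39 left the counting interval, 20 by total counts and 19 by FPKM. None of the carriers past 2-fold changed sign, which was fixed in advance, since all were lower and both scalings lower KO values further. Carriers above 0 by TMM did change side by total counts, such as *Slc25a47* (0.40 to -0.20) and *Slc25a16* (0.54 to -0.06), whereas *Slc25a28* stayed above 0 (0.66 to 0.06).

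In percentage points, class shares went from -4.74 to 0.82 (counts), -3.34 (without *Slc25a47*) and -3.39 (per kilobase of the longest transcript, chosen after seeing the data) for adenine nucleotides and phosphate, and from -3.47 to -2.38 (without *Slc25a47*) for carboxylates. They went from -1.83 to 0.18 and -0.03 (without *Slc25a47* and per kilobase) for amino acids. In the order counts, without *Slc25a47* and per kilobase, they were 2.81, 3.94 and 2.92 for nucleotides and cofactors, -1.57, 0.72 and -2.02 for iron and glutathione, and 3.71, 0.74 and 6.15 for other members. Without *Slc25a10*, also chosen after seeing the data, they were -0.22 for carboxylates, -5.64 for adenine nucleotides and phosphate and 7.57 for other members. The cause of these moves was not tested. No paired analysis was possible because there was 1 library for each genotype, and no replicate could be left out. Under about 100 counts, as for *Slc25a24* or *Slc25a30*, intervals were too wide to place a carrier on either side of 2-fold.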
